A study of Mus musculus with 9 samples.

Results

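The bile duct cell genes described here are Sox9, Epcam, Krt19, Krt7, Krt8, Krt18, Cftr and Cd24a, which are 8 of the 54532 genes counted. They were chosen by gene name as known genes of cholangiocytes, the epithelial cells that line the bile ducts, and the rule used gene names alone. All 8 were found in the count matrix once each. A filter on low counts left 14025 genes for testing, and it left 7 of the 8, because Cftr had too few reads.

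RNA was sequenced from whole liver of 9 C57BL/6 males, with 3 mice in each of 3 groups. The old Fabp4 shRNA mice received adeno-associated virus 9, a gene delivery vector, carrying a short hairpin RNA against Fabp4 (AAV9-shRNA-Fabp4). Fabp4 encodes a fatty acid carrier of fat cells and macrophages. The old control mice received the same vector with a negative hairpin (AAV9-shRNA-Neg). The injections, through the tail vein and directly into subcutaneous fat, took place at 14 months, and the livers of both injected groups were taken at 20 months. The young mice were 8 weeks old, and no injection of them is described, so that age and injection cannot be told apart in either comparison with young liver. Each arm of the study had 15 mice, and how the sequenced mice were picked from them is not given in the sources used here. Nothing in the labels says that libraries were pooled. One young column carries a number that the labels do not list, and it is called the unnumbered young library.

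Total counts per library were 14609431 to 17125440 for old Fabp4 shRNA, 15009727 to 15951036 for old control and 14243344 to 16414852 for young. A floor of 3 counts stood for 0.175 to 0.211 CPM (counts scaled to library size), and floors cover counting error only. The targeted gene Fabp4 did not separate livers labelled old Fabp4 shRNA from old control livers. Fabp4 measured 11.2, 3.81 and 7.58 CPM in livers labelled old Fabp4 shRNA replicates 1, 3 and 6, against 7.21, 13.6 and 10.9 CPM in old control replicates 1, 2 and 5. Replicates 1 and 6 labelled old Fabp4 shRNA thus lay within the old control range. The log2 difference of Fabp4 was -0.49 ± 1.16 (SE), with an adjusted p of 0.960 by edgeR's quasi-likelihood test. The unnumbered young library had 64.8 CPM of Fabp4, 3737 CPM of a list of skeletal muscle genes and 106.7 CPM of a list of gallbladder, gut and pancreas genes. In the other 8 libraries those 2 lists summed to at most 81.7 and 44.6 CPM. Hepatocyte marker genes summed to 88829 to 106540 CPM in livers labelled old Fabp4 shRNA, 99686 to 154145 CPM in old control livers and 124455 to 186553 CPM in young livers, so the libraries held liver RNA as labelled.

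Cholangiocytes make up a small share of liver cells. They modify the bile that hepatocytes secrete, adding fluid and bicarbonate through chloride and anion transporters, and they multiply in the ductular reaction that follows many kinds of liver injury. Their identity is set up in development by Notch signalling and transcription factors such as Sox9, and the mature cells carry Epcam and the keratins 7 and 19 that adult hepatocytes lack. Keratins 8 and 18, in contrast, are the keratin pair of hepatocytes as well as of bile duct cells. In RNA from whole liver, fewer cells of a type and less RNA per cell cannot be told apart.

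The promoters of Epcam, Krt8 and Krt18 are shown because these genes differ widely in the levels described next. Epcam stood at a low level, though not the lowest of the 8 genes, and the keratin pair among the more abundant transcripts. RefSeq's promoter table for GRCm38.p6 held 5 of the 8 genes (Epcam, Krt7, Krt8, Krt18 and Cftr). Each sequence runs 5′ to 3′ on the gene's own strand, from 250 bases before RefSeq's gene start to the 50 bases that begin with it. The Epcam promoter is chr17:87635729-87636028 on the plus strand, that of Krt8 is chr15:102004293-102004592 on the minus strand, and that of Krt18 is chr15:102027966-102028265 on the plus strand. Capitals mark each match to ATAAA or TATAA, short A- and T-rich words, on the gene's strand.
Epcam: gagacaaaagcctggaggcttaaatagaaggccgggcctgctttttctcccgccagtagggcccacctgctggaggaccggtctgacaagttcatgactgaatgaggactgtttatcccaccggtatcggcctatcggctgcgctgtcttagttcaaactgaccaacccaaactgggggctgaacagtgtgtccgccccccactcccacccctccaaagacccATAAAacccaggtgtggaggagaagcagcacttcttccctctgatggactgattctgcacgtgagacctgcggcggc
Krt8: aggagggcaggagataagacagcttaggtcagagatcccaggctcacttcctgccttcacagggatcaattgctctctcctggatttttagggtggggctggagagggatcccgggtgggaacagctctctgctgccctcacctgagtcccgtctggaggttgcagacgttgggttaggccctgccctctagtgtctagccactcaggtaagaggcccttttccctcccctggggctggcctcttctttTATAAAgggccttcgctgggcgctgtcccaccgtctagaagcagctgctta
Krt18: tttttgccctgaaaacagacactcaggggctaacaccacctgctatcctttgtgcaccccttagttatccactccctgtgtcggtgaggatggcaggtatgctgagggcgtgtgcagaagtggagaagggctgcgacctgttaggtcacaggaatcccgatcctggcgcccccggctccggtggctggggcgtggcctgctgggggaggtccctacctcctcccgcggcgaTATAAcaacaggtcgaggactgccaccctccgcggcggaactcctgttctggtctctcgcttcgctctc
Epcam's match lay at bases -27 to -23 and that of Krt18 at bases -19 to -15, counted so that base 1 is RefSeq's gene start. In Krt8 the capitals hold both words, overlapping, at bases -1 to 5 around that start. On the gene's strand, ATAAA was found in 26.0% and TATAA in 17.5% of the 32851 promoters of this length. On either strand the shares were 40.0% and 24.9%, and the words can overlap each other. The other strand of Epcam had ATAAA at bases -139 to -135. That of Krt8 had ATAAA at bases -3 to 2 and TATAA at bases -2 to 3. The words GGGCGG (35.7% of promoters) and CCAAT (37.4%) were searched in the same way on both strands. GGGCGG was found once among these 3, on the other strand of Epcam, and CCAAT in none. The share of G and C was 57.0% for Epcam, 58.0% for Krt8 and 61.3% for Krt18, against a median of 52.7% over all promoters.

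The 8 genes covered a wide span of levels. Per length of transcript, in the authors' FPKM (fragments scaled to gene length and library size), the keratin pair stood far above the rest in every library. The median FPKM of Krt18 was 156 in livers labelled old Fabp4 shRNA, 189 in old control and 181 in young livers. That of Krt8 was 89.9 in livers labelled old Fabp4 shRNA, 87.9 in old control and 103 in young livers. Each of the other 6 genes stayed at or below 3.01 FPKM in all libraries. By mean CPM, Krt18 and Krt8 lay at percentiles 96.3 and 95.5 of the tested genes, Sox9 at 38.7, Cd24a at 27.9, Epcam at 21.9, Krt19 at 5.98 and Krt7 at 5.00. The genes that mark bile duct cells most narrowly were thus measured with few reads, which bounds the precision of all that follows.

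**Figure D1:**
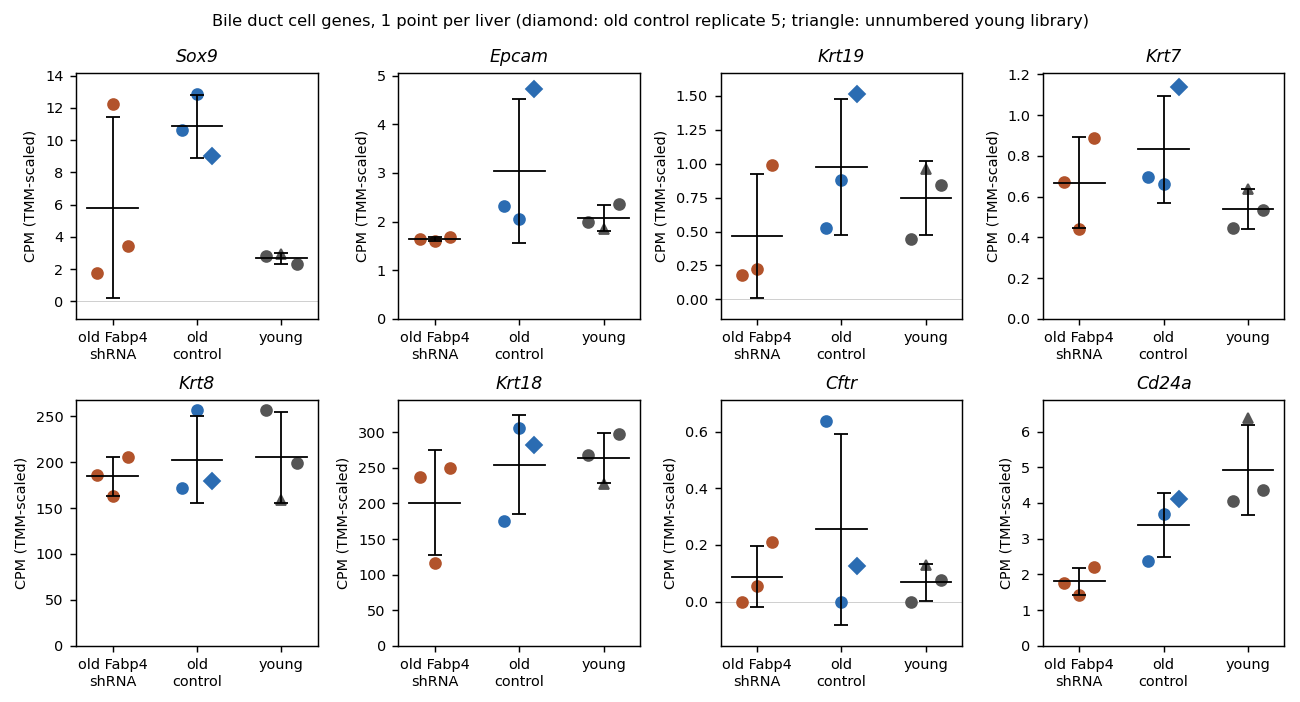
Level of each bile duct cell gene in TMM-scaled CPM (y axis, linear, a separate scale per gene), 1 point per liver, for livers labelled old Fabp4 shRNA, old control and young; horizontal lines are group means and bars are ± 1 SD (n = 3 each). The diamond, old control replicate 5, is the highest point for Epcam, Krt19 and Krt7, while for Sox9 the 3 old control points and 1 point labelled old Fabp4 shRNA lie at 9.03 CPM or above and the other 5 at 3.45 CPM or below.

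Sox9 (ENSMUSG00000000567, chromosome 11, 112782224 to 112787760, plus strand, GRCm38) encodes the transcription factor that marks bile duct cells and the ductal plate from which they form. It was the only one of the genes set apart between old control and young liver at an unadjusted p under 0.05. Old control replicates 1, 2 and 5 had 10.6, 12.9 and 9.03 CPM, against 2.81, 2.94 and 2.29 CPM in young replicate 1, the unnumbered young library and young replicate 5. All 3 old control livers lay above all 3 young livers, with counts of 183, 175 and 143 reads against 38, 46 and 30. Old control livers averaged 10.8 ± 1.93 CPM and young livers 2.68 ± 0.343 CPM (SD, n = 3 each), a 4.03-fold ratio. On the log2 scale the difference was 2.01 ± 0.57 (SE), with a 95% interval from 0.76 to 3.26. Its unadjusted p was 0.00448 and its Benjamini-Hochberg adjusted p over all 14025 genes was 0.296 by edgeR's quasi-likelihood test, so that it did not pass at 0.05. DESeq2 gave 2.00 with an adjusted p of 0.0283, and edgeR on the 6 libraries compared gave 1.99 with an adjusted p of 0.0325, both past the threshold. The share of all genes called was 0.0357% with edgeR on all 9 libraries, 1.06% with DESeq2 and 0.112% with edgeR on the 6 libraries.

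In livers labelled old Fabp4 shRNA, Sox9 was uneven. It stood at 1.77 CPM in replicate 1, 12.2 CPM in replicate 3 and 3.45 CPM in replicate 6, from 29, 222 and 66 reads. Replicate 3 lay within the range of the old control livers, replicate 1 below every young liver and replicate 6 just above the young range. The mean was 5.82 ± 5.63 CPM (SD, n = 3), and the coefficient of variation was 96.6%, against 17.8% in old control and 12.8% in young livers. Against old control, the log2 difference was -0.89 ± 0.54 (SE), with an adjusted p of 0.791, and the groups overlapped. Without replicate 3 labelled old Fabp4 shRNA, it was -2.04 ± 0.38 with an adjusted p of 0.892. Against young liver, it was 1.12 ± 0.56 with an adjusted p of 0.582, and without the same replicate it was -0.03. The old control against young difference without that replicate, which it enters only through the shared spread, was 2.01 ± 0.33 with an adjusted p of 0.0814.

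The choice of libraries moved Sox9 little between old control and young liver. Without old control replicate 5 the log2 difference was 2.13 ± 0.64, with an adjusted p of 0.442. Without the unnumbered young library it was 2.05 ± 0.70, with an adjusted p of 0.382. With the reads recovered from that library's FPKM column, which holds other values than its count column, it was 1.91 ± 0.58, with an adjusted p of 0.208. Over all alternatives run it lay between 1.07 and 2.19.

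**Figure D2:**
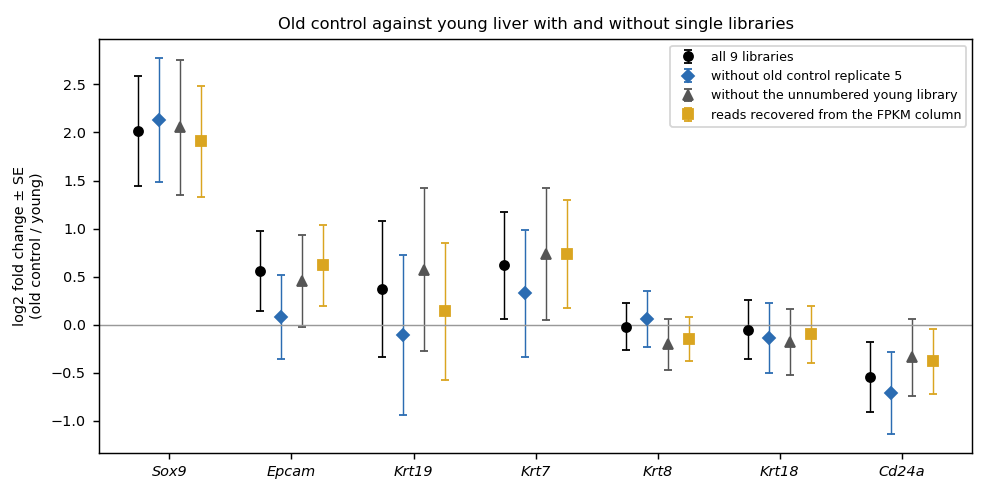
Log2 fold change of old control over young liver (y axis, points, ± SE) for the 7 tested bile duct cell genes with all 9 libraries, without old control replicate 5, with the unnumbered young library left out, and with its reads recovered from the FPKM column. Sox9 stays between 1.91 and 2.13, whereas Epcam drops to 0.08 and Krt19 to -0.10 without old control replicate 5.

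Epcam (ENSMUSG00000045394, chromosome 17, 87635979 to 87651129, plus strand) encodes a cell adhesion molecule at the surface of bile duct cells. It stood at 1.65, 1.60 and 1.67 CPM in livers labelled old Fabp4 shRNA, against 2.32, 2.06 and 4.73 CPM in old control replicates 1, 2 and 5. The young livers had 2.00 CPM in replicate 1, 1.85 CPM in the unnumbered library and 2.37 CPM in replicate 5. The livers labelled old Fabp4 shRNA thus lay below all 6 others, in a span of less than 0.1 CPM, and old control replicate 5 lay far above the other 8. On total counts the livers labelled old Fabp4 shRNA overlapped both other groups, at 1.85, 1.73 and 1.87 CPM. Old control replicate 2 then had 1.79 CPM and young replicate 1 had 1.64 CPM. Epcam's log2 difference between livers labelled old Fabp4 shRNA and old control was -0.89 ± 0.42 (SE), with a 95% interval from -1.79 to 0.01, and edgeR's p was 0.0527 before adjustment and 0.741 after it. Without old control replicate 5 it was -0.42 ± 0.43, with an adjusted p of 0.997. Against young liver it was -0.33 ± 0.42, with an adjusted p of 0.823, and the groups overlapped once the recovered reads replaced the unnumbered library's counts. For old control against young, the difference of 0.55 ± 0.41 (adjusted p = 0.658) was 0.08 ± 0.44 without old control replicate 5.

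Cd24a (ENSMUSG00000047139, chromosome 10, 43578284 to 43584265, plus strand) encodes a small surface glycoprotein of bile duct cells, which developing red cells, B cells and neutrophils carry as well. It was lowest in livers labelled old Fabp4 shRNA, at 1.77, 1.43 and 2.19 CPM. Old control replicates 1, 2 and 5 had 2.38, 3.68 and 4.10 CPM. Young replicate 1, the unnumbered library and replicate 5 had 4.07, 6.39 and 4.35 CPM. The 3 livers labelled old Fabp4 shRNA lay below all 6 others, and old control and young livers overlapped only between old control replicate 5 and young replicate 1. The log2 difference of livers labelled old Fabp4 shRNA against young was -1.45 ± 0.37 (SE), with a 95% interval from -2.26 to -0.65 and an unadjusted p of 0.00188. The edgeR adjusted p was 0.333, which did not pass, whereas DESeq2 gave -1.46 with an adjusted p of 0.0485, which did. Against old control the difference was -0.91 ± 0.37, and edgeR's p was 0.0299 before adjustment and 0.728 after it. For old control against young it was -0.54 ± 0.36, with an adjusted p of 0.609.

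Genes of the blood cell types that carry Cd24a also differed between the groups, and not all in the direction of Cd24a. A list of 8 red cell genes, 7 of them tested, summed to 172 to 361 CPM in livers labelled old Fabp4 shRNA and 189 to 330 CPM in old control livers, against 525 to 1033 CPM in young livers. All 7 tested red cell genes had a negative log2 difference both for livers labelled old Fabp4 shRNA and for old control livers against young, while 4 were positive and 3 negative for livers labelled old Fabp4 shRNA against old control. A list of neutrophil genes summed to 6.18 to 16.8 CPM in livers labelled old Fabp4 shRNA, against 20.1 to 67.7 CPM in old control livers, and 13.3 to 30.5 CPM in young livers. Against old control, all 10 of its 11 genes that were tested had a negative log2 difference, while all 10 were positive for old control against young. A list of 7 B cell genes summed to 97.8 to 270.4 CPM in livers labelled old Fabp4 shRNA and 184 to 461 CPM in old control livers, against 74.9 to 82.3 CPM in young livers. No gene of these 3 lists was at 0 in all 9 libraries, and Ly6g, a defining neutrophil gene, was at 0 in 6 of them with at most 2 reads. The B cell sums, lowest in young livers, were mostly Igkc and Ighm. Igkc averaged 95.1, 217 and 58.6 CPM in livers labelled old Fabp4 shRNA, old control and young, and Ighm 74.2, 61.4 and 10.0 CPM. Of the 7 B cell genes, 6 were positive for old control against young. Against young, livers labelled old Fabp4 shRNA had 5 of 7 B cell genes and 9 of 10 tested neutrophil genes negative. Against old control they had 6 of 7 B cell genes negative. The part of these cells in the Cd24a values was not tested.

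Krt19 (ENSMUSG00000020911, chromosome 11, 100140810 to 100148665, minus strand) and Krt7 (ENSMUSG00000023039, chromosome 15, 101411043 to 101430313, plus strand) encode the type I and type II keratins that in liver mark bile duct cells. Krt19 stood at 0.18, 0.22 and 0.99 CPM in livers labelled old Fabp4 shRNA, against 0.52, 0.88 and 1.52 CPM in old control livers. It stood at 0.44, 0.96 and 0.84 CPM in young replicate 1, the unnumbered library and replicate 5. These values rest on 3 to 24 reads per library, and all 3 groups overlapped. Its log2 difference was -1.03 ± 0.72 (SE) for livers labelled old Fabp4 shRNA against old control, with an adjusted p of 0.831. Without replicate 6 labelled old Fabp4 shRNA, whose 19 reads stand against 3 and 4 in the other replicates, it was -2.22 ± 0.81 with an adjusted p of 0.945. Against young it was -0.66 ± 0.73 for livers labelled old Fabp4 shRNA (adjusted p = 0.805; -1.85 ± 0.81 without that replicate, adjusted p = 0.684) and 0.37 ± 0.71 for old control (adjusted p = 0.879). The sign of the old control difference turned without old control replicate 5, to -0.10.

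Krt7 stood at 0.67, 0.44 and 0.89 CPM in livers labelled old Fabp4 shRNA, against 0.70, 0.66 and 1.14 CPM in old control livers. In young livers it stood at 0.44, 0.64 and 0.53 CPM. The old control livers lay above the young ones without overlap, by 0.66 CPM at the lowest against 0.64 CPM at the highest. On total counts they overlapped, at 0.58 CPM in old control replicate 2 against 0.62 CPM in the unnumbered young library. The 3 log2 differences of Krt7 were 0.62 ± 0.56 for old control against young (adjusted p = 0.721), -0.32 ± 0.54 for livers labelled old Fabp4 shRNA against old control (adjusted p = 0.942) and 0.30 ± 0.56 against young (adjusted p = 0.891). Without old control replicate 5, the first was 0.33 ± 0.66. An antisense gene, Gm671, shares 77 exonic bases with Krt7 and had at most 2 counts in any library.

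Krt8 (ENSMUSG00000049382, chromosome 15, 101996698 to 102004482, minus strand) and Krt18 (ENSMUSG00000023043, chromosome 15, 102028180 to 102032027, plus strand) encode type II and type I partners that pair into filaments in simple epithelia, and they lie close together on the same chromosome. Krt8 stood at 186, 163 and 205 CPM in livers labelled old Fabp4 shRNA, at 172, 257 and 179 CPM in old control livers, and at 257, 159 and 200 CPM in young livers. Krt18 stood at 238, 116 and 250 CPM in livers labelled old Fabp4 shRNA, against 175, 306 and 283 CPM in old control livers. Young replicate 1, the unnumbered library and replicate 5 had 268, 227 and 298 CPM of Krt18. The groups overlapped for both genes in all 3 comparisons. The 95% interval of the log2 difference ran from -0.55 to 0.51 for Krt8 and from -0.72 to 0.61 for Krt18 between old control and young, and from -0.66 to 0.40 for Krt8 and from -1.003 to 0.33 for Krt18 between livers labelled old Fabp4 shRNA and old control. No adjusted p of either gene was below 0.716.

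The balance of the keratin pair differed from liver to liver. Per length, Krt18 over Krt8 was 0.968 in replicate 3 labelled old Fabp4 shRNA, the one liver in which Krt18 was the lower of the pair, and between 1.39 and 2.15 in the other 8 libraries. The same replicate was the one with 12.2 CPM of Sox9. Over the 9 libraries, Krt8 and Krt18 had a Pearson r of 0.62 on the log2 scale, a description over libraries that share the scaling. The processed pseudogene Krt8-ps had at most 8 counts and the lincRNA Gm36026, which overlaps 101 exonic bases of Krt8 on the opposite strand, at most 2.

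Cftr (ENSMUSG00000041301, chromosome 6, 18170687 to 18322768, plus strand) encodes the chloride channel through which bile duct cells drive fluid into bile. It was at or near the floor. Livers labelled old Fabp4 shRNA had 0, 1 and 4 reads, old control replicates 1, 2 and 5 had 11, 0 and 2, and young livers had 0, 2 and 1. Of the 13 old control reads, 11 came from a single liver. The exact 95% Poisson interval, which covers counting error only, was 1.62 to 11.7 for the 5 reads of livers labelled old Fabp4 shRNA, 6.92 to 22.2 for the 13 reads of old control and 0.619 to 8.77 for the 3 reads of young livers. An exact two-sided permutation test of CPM gave p = 0.7 for livers labelled old Fabp4 shRNA against old control, p = 0.9 against young and p = 0.7 for old control against young, where 0.1 is the smallest that 3 against 3 allows. So few reads in 3 livers per group could not resolve a difference in Cftr.

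Over the 7 tested genes, edgeR called 0 in old control against young, where 0.0357% of all tested genes were called, 0 in livers labelled old Fabp4 shRNA against old control, where 0% were, and 0 in livers labelled old Fabp4 shRNA against young, where 0.057% were. At an unadjusted p under 0.05 the counts were 1 higher (Sox9), 1 lower (Cd24a) and 1 lower (Cd24a), where the shares of all tested genes were 6.42% higher and 4.07% lower, 3.27% and 3.48%, and 4.43% and 4.5%. DESeq2 called 1 (Sox9), 0 and 1 (Cd24a). The shares of all genes called by DESeq2 in the last 2 comparisons were 0.032% and 0.66%. Between old control and young, 4 of 7 log2 differences were positive, with a median of 0.37, against 0.01 over all tested genes, and 6 of 7 were positive on total counts without scaling factors. The median was 0.06 without old control replicate 5. For livers labelled old Fabp4 shRNA against old control, 7 of 7 were negative, with a median of -0.89 against -0.01 over all tested genes. That count was 6 of 7 on total counts, where Krt8 was at 0.04, and the median was -0.42 without old control replicate 5. For livers labelled old Fabp4 shRNA against young, 5 of 7 were negative, with a median of -0.33 against 0.02, and 4 of 7 on total counts. The comparisons share libraries, so their signs are not separate observations.

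**Figure D3:**
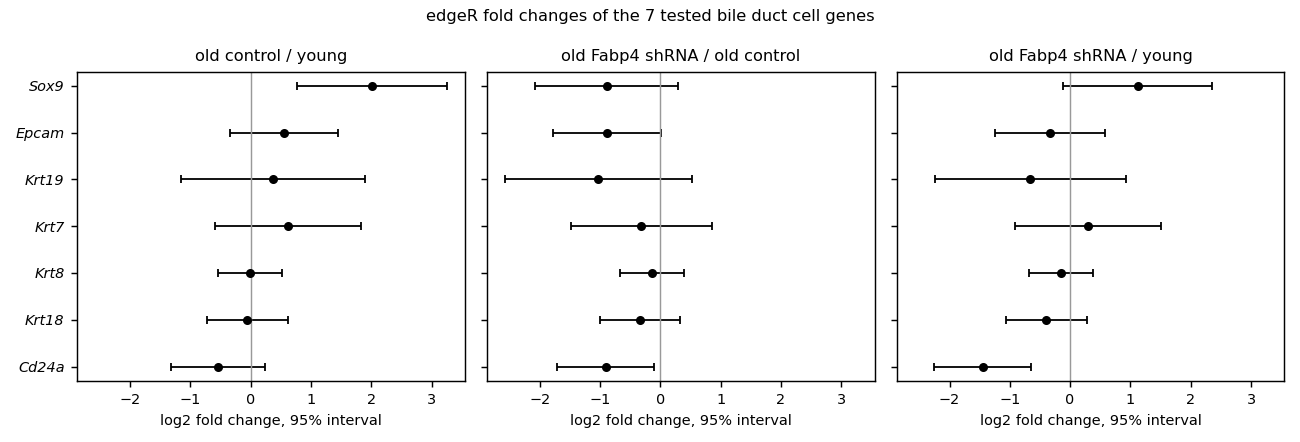
Log2 fold change (x axis, points) with its 95% interval (bars) for the 7 tested bile duct cell genes in each of the 3 comparisons, from edgeR fitted to all 9 libraries. The interval of Sox9 in old control over young and those of Cd24a in both comparisons of livers labelled old Fabp4 shRNA lie to one side of 0, and no adjusted p was below 0.05.

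Groups without overlap were counted in the same way. Between old control and young, Sox9 and Krt7 were higher without overlap, 2 of 7, against 8.89% of all tested genes, and 0 were lower, against 8.26%. In livers labelled old Fabp4 shRNA, Epcam and Cd24a were lower than in old control without overlap, against 5.67% of all tested genes, and 0 were higher, against 6.02%. The same 2 genes were lower without overlap against young, where 6.67% of all tested genes were, and 0 were higher, against 6.79%. For each of these the exact two-sided permutation p was 0.1 on TMM-scaled CPM, the smallest possible. On total counts Sox9 and Cd24a still did not overlap in these comparisons. Krt7 did overlap between old control and young on total counts, and Epcam overlapped in both of its comparisons. The shares of all genes without overlap were not counted on that scale.

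Old control replicate 5 was the highest of the 9 libraries for Epcam, Krt19 and Krt7, 3 of the 7, while this library was the highest for 9.62% of all tested genes. It was not the highest for Sox9, Cd24a, Krt8 or Krt18. In it, the ratio of Krt8 to Epcam per length was 39.5, against 76.9 to 146 in the other 8 libraries. B cell genes summed to 461 CPM in it, the highest of the 9 libraries, against 270.4 CPM in the next highest, replicate 1 labelled old Fabp4 shRNA. Stellate cell and fibroblast genes summed to 402 CPM in it, and it was the highest library for 6 of the 11. They summed to 426 CPM in the unnumbered young library, which also held 3737 CPM of skeletal muscle genes. The stellate list holds Des, which averaged 59.9 ± 97.8 CPM (SD) in young livers, against 6.21 ± 2.08 CPM in old control livers. Genes of the mesothelium, the cell sheet that covers the liver, summed to 4.55 CPM in old control replicate 5. They summed to 3.64 CPM in replicate 3 labelled old Fabp4 shRNA and to 3.89 CPM in young replicate 5, the next highest. No gene of the B cell, stellate and mesothelial lists was at 0 in all 9 libraries, while 6 of the 8 mesothelial genes were at 0 in at least 1. The part of these cells in the Epcam, Krt19 and Krt7 values was not tested. Of the 7 genes, the unnumbered young library was the highest for Cd24a alone.

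A list of 23 other cholangiocyte genes placed the 8 genes in context. Of these 23, 18 were tested, and edgeR called none in any comparison. Between old control and young, 12 were positive and 6 negative, with a median log2 difference of 0.29, and on total counts 15 were positive and 3 negative. The median was 0.06 without old control replicate 5. For livers labelled old Fabp4 shRNA against old control, 5 were positive and 13 negative (7 and 11 on total counts), with a median of -0.46, and 3 were lower at an unadjusted p under 0.05, against 3.48% of all tested genes. Against young, livers labelled old Fabp4 shRNA had 7 positive and 11 negative, with a median of -0.23, and 10 and 8 on total counts. The number of 3 against old control was 1 without old control replicate 5 and 1 without replicate 3 labelled old Fabp4 shRNA. Old control replicate 5 was the highest library for 7 of the 18. The list summed to 332 CPM in that library, the highest of the 9 libraries, with Spp1 alone at 142 CPM. The next highest sum was 291 CPM, in the unnumbered young library.

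Spp1, which encodes osteopontin, a secreted protein that bile duct cells make in liver, had the smallest p among these genes in 2 of the 3 comparisons. Its level was 17.6, 23.7 and 34.2 CPM in livers labelled old Fabp4 shRNA, against 50.3, 66.5 and 142 CPM in old control livers. Young livers had 51.7, 47.7 and 47.9 CPM in replicate 1, the unnumbered library and replicate 5. The livers labelled old Fabp4 shRNA lay below all 6 others, and old control replicate 5 was again the highest. The log2 difference was -1.77 ± 0.36 against old control, with an adjusted p of 0.728, and -0.96 ± 0.35 against young, with an adjusted p of 0.484. For old control against young it was 0.81 ± 0.35, with an adjusted p of 0.452. Macrophages make osteopontin too, and a list of 8 Kupffer cell and macrophage genes summed to 115 to 224 CPM in livers labelled old Fabp4 shRNA and 195 to 651 CPM in old control livers, against 166 to 279 CPM in young livers. All 8 had a negative log2 difference for livers labelled old Fabp4 shRNA against old control, with a median of -1.06. Of them, 4 were lower at an unadjusted p under 0.05, against 3.48% of all tested genes. Of the 8, 7 were positive for old control against young, with a median of 0.76. None of these 8 genes was at 0 in any library. The part of these cells in the Spp1 values was not tested.

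The other genes that the rule named from this list likewise did not pass. Lower without overlap in livers labelled old Fabp4 shRNA than in old control were Muc1, a membrane mucin (-1.22 ± 0.50), Prom1, a surface protein of ductal progenitors (-1.26 ± 0.56), and Dcdc2a, a microtubule-binding protein of primary cilia (-0.96 ± 0.45). Of all tested genes, 5.67% were lower without overlap in that comparison. On total counts the groups overlapped for Prom1 and Dcdc2a. Slc4a2, the anion exchanger of bicarbonate secretion, was higher without overlap in the same comparison (0.52 ± 0.26), against 6.02% of all tested genes. Against young, Cdh1, which encodes E-cadherin, stood at -1.71 ± 0.58 in livers labelled old Fabp4 shRNA, Slc4a2 at 0.50 ± 0.26, and Slc10a2, a bile acid transporter, at 0.83 ± 0.63. Between old control and young, Slc10a2 stood at 1.43 ± 0.64, Cdh1 at -0.93 ± 0.57 and Dcdc2a at 0.72 ± 0.45. Adjusted p-values of these genes ran from 0.479 to 0.741. Single libraries moved some of them against young: in livers labelled old Fabp4 shRNA, Slc10a2 was at 0.10 ± 0.61 without replicate 3 and Cdh1 at -2.41 ± 0.58 without replicate 6.

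**Figure D4:**
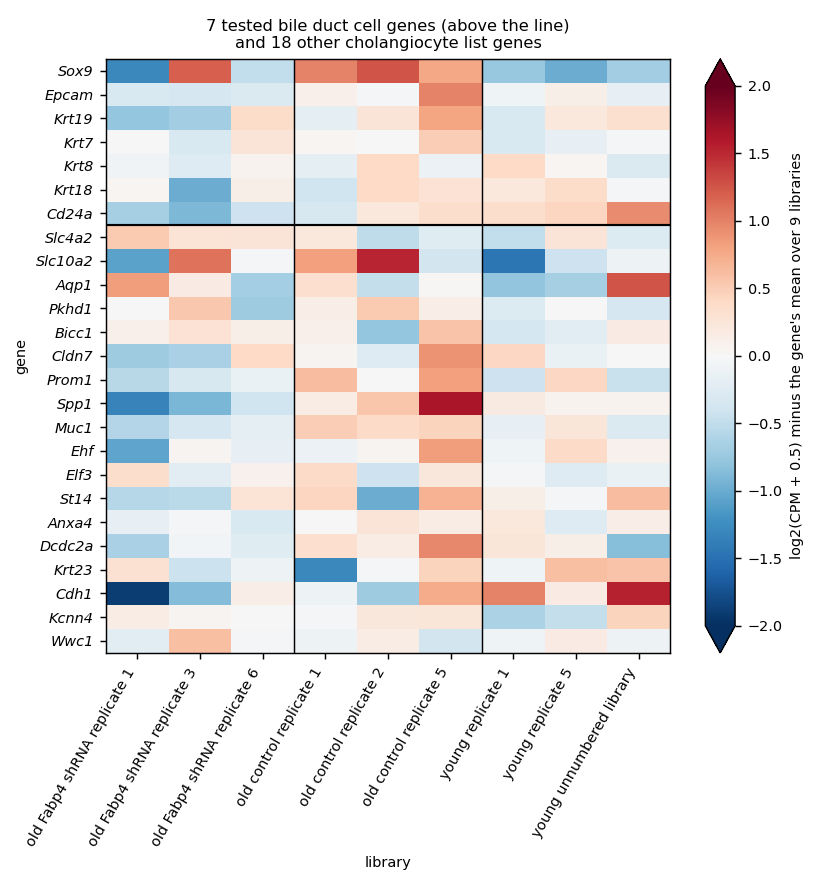
Log2(CPM + 0.5) minus the gene's mean over the 9 libraries (colour, red above and blue below the mean) for the 7 tested bile duct cell genes, above the line, and the 18 tested genes of the other cholangiocyte list, below it; columns are libraries in the order labelled old Fabp4 shRNA, old control and young. The column of old control replicate 5 holds the highest value for 3 of the upper 7 and 7 of the lower 18 genes, among them Spp1 at 142 CPM.

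Notch and YAP signalling are the pathways that lead liver cells towards a bile duct fate, and Sox9 is a known target of both. Of 16 listed genes 15 were tested, and edgeR called none. Between old control and young, 12 were positive and 3 negative, with a median of 0.46, and 4 were higher at an unadjusted p under 0.05, against 6.42% of all tested genes. In the same comparison 1 was lower, against 4.07%. That gene, named after its values were seen, was Ajuba, a LIM domain protein that binds the Hippo kinase LATS, with 5.01, 5.07 and 5.69 CPM in livers labelled old Fabp4 shRNA, 4.36, 4.56 and 5.93 CPM in old control livers and 6.51, 8.75 and 8.17 CPM in young livers. Its unadjusted p was 0.0319, and up to 0.0878 with 1 library left out. Hes1, the classical Notch target, stood at 9.04, 13.7 and 12.0 CPM in livers labelled old Fabp4 shRNA and at 15.9, 19.4 and 19.6 CPM in old control livers, against 6.36, 7.02 and 8.17 CPM in young livers. Its 3 groups did not overlap, with the livers labelled old Fabp4 shRNA between the others. Its log2 difference was 1.35 ± 0.24 for old control against young (adjusted p = 0.139), -0.66 ± 0.23 for livers labelled old Fabp4 shRNA against old control (adjusted p = 0.728) and 0.69 ± 0.24 against young (adjusted p = 0.458). The first of these passed at 1.35 ± 0.22 with an adjusted p of 0.0486 when replicate 1 labelled old Fabp4 shRNA, which is in neither group, was left out of the fit.

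Amotl2, a YAP target and partner, stood at 0.76 ± 0.21 between old control and young, with an adjusted p of 0.274. Heyl, a Notch target, stood at -0.64 ± 0.56 between livers labelled old Fabp4 shRNA and old control. Ctgf, a YAP target, had 13.6, 7.56 and 11.8 CPM in livers labelled old Fabp4 shRNA, against 3.25, 6.83 and 1.68 CPM in young livers, a log2 difference of 1.47 ± 0.47 with an adjusted p of 0.443. With the recovered reads of the unnumbered young library it passed, at 2.17 ± 0.38 with an adjusted p of 0.0367, and without that library it was 2.14 ± 0.46 with an adjusted p of 0.138. Over the list, livers labelled old Fabp4 shRNA against old control had 8 positive and 7 negative differences, with a median of 0.09, and against young 12 and 3, with a median of 0.29. In the last comparison 5 were higher at an unadjusted p under 0.05, against 4.43% of all tested genes, and 2 were without replicate 3 labelled old Fabp4 shRNA. Between old control and young, 2 in place of 4 were higher without old control replicate 5. Endothelial cells also use Notch and YAP. A list of 8 endothelial genes summed to 98.7 to 204 CPM in livers labelled old Fabp4 shRNA and 110 to 210.3 CPM in old control livers, against 83.2 to 94.8 CPM in young livers. For old control against young, all 8 were positive, with a median of 0.97. Of them, 5 were higher at an unadjusted p under 0.05, against 6.42% of all tested genes. Livers labelled old Fabp4 shRNA had 7 of 8 positive against young, with a median of 0.54. At an unadjusted p under 0.05, 4 were higher, against 4.43% of all tested genes. None of these 8 genes was at 0 in any library. The part of endothelial cells in the Notch and YAP values was not tested.

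Of 11 genes known from the ductular reaction, 7 were tested and none was called. Cd44, a hyaluronan receptor, stood at 7.39, 7.50 and 6.53 CPM in livers labelled old Fabp4 shRNA, against 21.7, 11.2 and 10.5 CPM in old control livers, and at 4.44, 6.26 and 6.79 CPM in young livers. Mmp7, a matrix protease of ductular cells, stood at 0.92, 0.55 and 1.46 CPM in livers labelled old Fabp4 shRNA, against 1.86, 1.69 and 5.18 CPM in old control livers, and at 0.59, 0.51 and 1.30 CPM in young livers. Both were highest in old control without overlap with either other group on TMM-scaled CPM. Of all tested genes, 8.89% were higher without overlap in old control than in young. In livers labelled old Fabp4 shRNA, 5.67% were lower without overlap than in old control. On total counts Mmp7 overlapped between livers labelled old Fabp4 shRNA and old control. The log2 differences between old control and young were 1.31 ± 0.31 for Cd44 (adjusted p = 0.204) and 1.86 ± 0.61 for Mmp7 (adjusted p = 0.359). Between livers labelled old Fabp4 shRNA and old control they were -1.02 ± 0.31 and -1.57 ± 0.59, each with an adjusted p of 0.728. Mmp7 was at 1.15 ± 0.63 and -0.85 ± 0.62 in these comparisons without old control replicate 5. Against young, the smallest p in this list belonged to Tnfsf12 (-0.72 ± 0.46) and Lcn2 (1.23 ± 1.24), which was at 0.29 ± 1.37 without replicate 3 labelled old Fabp4 shRNA. The list median was 0.22 for old control against young, -0.38 for livers labelled old Fabp4 shRNA against old control and 0.29 against young. Neutrophils and macrophages carry Cd44 as well. The neutrophil sums given with Cd24a and the macrophage sums given with Spp1 reached their highest values in old control livers, and old control replicate 1, the highest library for Cd44, was also the highest for the macrophage genes, at 651 CPM. Their part in the Cd44 values was not tested.

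Mesothelial cells also carry keratins 8, 18 and 19. Only 2 of 8 mesothelial list genes were tested. The transcription factor Wt1 had a log2 difference of 2.79 ± 0.89 between old control and young (adjusted p = 0.346), -2.41 ± 0.84 between livers labelled old Fabp4 shRNA and old control (adjusted p = 0.728) and 0.38 ± 0.96 against young. The membrane glycoprotein Gpm6a had 0.45 ± 0.48, -0.20 ± 0.47 and 0.25 ± 0.48 in the same comparisons. Without old control replicate 5, Wt1 was at 2.14 ± 1.01 in the first and -1.77 ± 0.96 in the second, and without young replicate 5 at 3.97 ± 1.11 in the first and 1.56 ± 1.16 in the last. Wt1 stood at 0.12, 0.39 and 0.42 CPM in livers labelled old Fabp4 shRNA, against 0.64, 1.55 and 2.90 CPM in old control livers. It stood at 0, 0.19 and 0.53 CPM in young replicate 1, the unnumbered library and replicate 5. The lowest of these values lay at or near the floor of 3 counts, so the size of its differences rests on few reads. Wt1 was highest in old control replicate 5, which is also the library highest in Epcam, Krt19 and Krt7.

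Genes whose levels followed Sox9 most closely were sought among 12580 genes with a mean of at least 1 CPM, by Pearson r of log2(CPM + 0.5) over the 9 libraries. Grk5, a kinase of G protein-coupled receptors, had r = 0.97, Irs2, an adaptor of the insulin receptor, r = 0.97 and Tab2, an adaptor of the kinase TAK1, r = 0.97. Spearman's rho was 0.92, 0.97 and 1.00 for Grk5, Irs2 and Tab2. Without old control replicate 5 the values of r were 0.97, 0.98 and 0.96, and Irs2 was then the first of all genes. Irs2 stood at 15.2, 75.4 and 23.4 CPM in livers labelled old Fabp4 shRNA, against 50.04, 58.1 and 34.5 CPM in old control livers, and at 16.6, 19.2 and 15.1 CPM in young livers. Its highest library was replicate 3 labelled old Fabp4 shRNA, the one in which Sox9 also lay among the old control values. These correlations describe 9 libraries that share scaling and depth, picked as the highest of many, and carry no test.

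**Figure D5:**
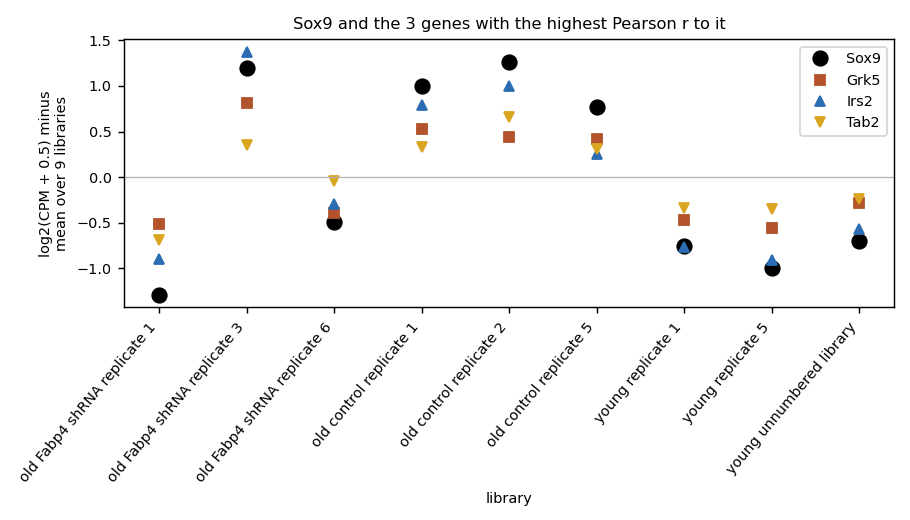
Log2(CPM + 0.5) minus the mean over the 9 libraries (y axis) for Sox9, Grk5, Irs2 and Tab2, 1 set of points per library, in the order labelled old Fabp4 shRNA, old control and young. All 4 genes lie above their means in the 3 old control libraries and in replicate 3 labelled old Fabp4 shRNA, and below in the other 5 libraries.

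For Epcam the closest genes were Tgfbr1, a receptor of TGF-beta (r = 0.95), Ppp4r3a, a subunit of protein phosphatase 4 (r = 0.94), and 4833411C07Rik (r = 0.92). Without old control replicate 5, r was 0.74, 0.91 and 0.55 for these, so that the likeness of the first and last leaned on that library. For Krt19 they were Gm4963 (r = 0.93), Zfand5, a zinc finger protein (r = 0.91), and Rpl36al, a ribosomal protein (r = 0.91), and r was 0.92, 0.90 and 0.87 without that library. Among the bile duct cell genes themselves, r between Epcam and Krt7 was 0.63 with all 9 libraries and -0.10 without old control replicate 5, and between Epcam and Krt19 it was 0.66 and 0.40. Sox9 had r = 0.30 with Epcam, 0.12 with Krt19 and 0.16 with Krt7.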

How the data were processed

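RNA from 9 mouse livers was sequenced, and the submitters' processing notes name HISAT2 and the build GRCm38.p6. No source used here names the counting program or its strand setting. The labels' extraction text names NRVMs, whereas their tissue field says liver. The deposited count table holds unscaled read counts per gene. The deposited FPKM table holds the authors' values per transcript length and library size. Columns that matched no sample or group numbered 0. FPKM was the count times 1 factor per gene and 1 per column (tolerance 0.001) in 8 columns for 100% of 10483 genes, and in the unnumbered young column for 0.229%, so that column's 2 tables differ. Its FPKM values, taken back to reads, were whole within 0.05 for 100% of 17877 values, 11805823 reads in all, and 260 values could not be taken back. Its column name gives the group only.

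Counts were filtered with filterByExpr, scaled with TMM factors (trimmed means of M values) and fitted with a robust quasi-likelihood model of 3 groups over 9 libraries (edgeR 4.0.16, R 4.3.3, 6 residual degrees of freedom). A call needed an adjusted p (Benjamini-Hochberg, over 14025 genes) under 0.05. Unless said otherwise, adjusted p-values are edgeR's and two-sided, CPM are TMM-scaled and ± is SE for log2 differences and SD for means. The p-values measure the spread between these mice. The pipeline was tested on simulated data.

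The 8 genes and the 16 lists were chosen with earlier results of these data known. The rule names the 8 genes, the 4 other cholangiocyte genes and the 2 Notch and YAP, ductular reaction and mesothelial genes with the smallest p per comparison, any list gene called, and the 3 genes with the highest r to Sox9, Epcam and Krt19. One cholangiocyte gene is not reported here and was left out of its list. Gene positions came from GENCODE mouse release 21. Alternatives were other scalings and filters, DESeq2 1.42.0, limma 3.58.1 (voom on counts, and trend on log2 FPKM with pseudocounts of 1 and 0.1), fits to the 6 libraries compared, recovered reads, replicate numbers as a block and leaving out libraries; the lists and their named genes without single libraries were added after seeing the data. Krt7's long exon union (7049 bases) lowers its FPKM.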

Additional observations from a re-analysis of the deposited data

How the results depend on the processing

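Of 435 values of the 7 tested bile duct cell genes under alternatives, 416 kept their direction and side of the threshold, 15 turned in sign and 4 passed the threshold. On total counts, without scaling factors, Krt8 turned to 0.12 and Krt18 to 0.062 for old control against young, and Krt8 to 0.038 and 0.16 for livers labelled old Fabp4 shRNA against old control and young. Krt8 also turned to 0.012 for old control against young with at least 10 CPM in 3 libraries, and Epcam to -0.0030 without old control replicate 5 and the unnumbered young library. Leaving out 1 library moved the log2 difference of old control against young over -0.23 to 0.17 for Krt8, -0.21 to 0.15 for Krt18 and -0.10 to 0.68 for Krt19. It moved Krt8 in livers labelled old Fabp4 shRNA over -0.24 to 0.080 against old control and -0.31 to 0.042 against young, and Sox9 against young over -0.034 (without replicate 3 labelled old Fabp4 shRNA) to 1.55. On total counts the median of all genes shifted by 0.15, 0.14 and 0.29 in old control against young, and old Fabp4 shRNA against old control and young. Cftr, with no test, turned from a CPM difference of 0.187 to -0.0049 for old control against young, and from -0.167 to 0.025 for old Fabp4 shRNA against old control, without old control replicate 1. For old Fabp4 shRNA against young it turned from 0.020 to -0.040 without replicate 6 of the first group and to -0.014 without young replicate 1. In the same comparison, leaving out 1 library moved Gpm6a over -0.026 to 0.37 and Wt1 over -0.19 to 1.56; the cause of the other turns was not tested.

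Of all genes, 5 were called between old control and young. That was 137 with no filter, 2 with at least 10 CPM in 3 libraries, 160 with DESeq2, 3 with voom, 15 with the 6 libraries compared, 18 and 21 on log2 FPKM with pseudocounts of 1 and 0.1, and 1 to 10 leaving out a library. Between livers labelled old Fabp4 shRNA and old control, 0 were called by edgeR (946 at an unadjusted p under 0.05), against 8 with no filter, 5 with DESeq2, 1 with either FPKM pseudocount, 0 to 1 leaving out a library and 1 without both old control replicate 5 and the unnumbered young library. Between livers labelled old Fabp4 shRNA and young, 8 were called, against 94 with no filter, 1 with the 10 CPM filter, 103 with DESeq2, 0 with voom, 0 with 6 libraries, 53 and 77 on log2 FPKM, 57 with recovered reads, 0 to 37 leaving out a library and 0 without both libraries.

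The replicate numbers were not treated as pairs in the main fit. Deviations of same-numbered old control and young libraries correlated at 0.124 for number 1 and 0.0438 for number 5. Libraries of unlike number were not correlated in this way, so these values cannot show whether the numbers pair the samples. With the numbers as a replicate block, 158 genes were called between old control and young, and Sox9 stood at 1.95 with an adjusted p of 0.0299. Old control and young share only 2 numbers, 1 and 5. The block fit therefore compares these groups on those numbers alone and leaves few degrees of freedom for the spread. No block fit is given for old Fabp4 shRNA, which shares 1 number with each other group. The mean of Epcam in livers labelled old Fabp4 shRNA was 1.81 CPM on total counts, against 1.64 CPM. At under 25 reads per library, Krt19, Krt7 and Cftr are limited by depth, and the stricter filter left none of Epcam, Krt19, Krt7 and Cd24a.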
